A study of Mus musculus with 34 samples.

Results

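The 8 genes described here are the interferon-induced and T cell chemokines Cxcl9, Cxcl10, Cxcl11, Cxcl16, Ccl2, Ccl5 and Cx3cl1 and the chemokine receptor Cxcr3, chosen by name. The 10 d culture table held a row for 8 of them among its 30351 genes, and the 96 h culture table (28432 genes) and the tumor table (29745 genes) each held 7. Cxcl11, annotated as a polymorphic pseudogene in the mouse strain of the reference, had a row in the 10 d table alone. The study measured RNA in mouse SCLC (small cell lung cancer, which has neuroendocrine features) after inhibition of LSD1 (the histone demethylase Kdm1a) with bomedemstat (BOM), and its title names immune checkpoint blockade and killing by T cells. At 96 h, the lines RP-116, RP-48 and G8545 each gave 1 library with the solvent DMSO and 1 with BOM. At 10 d, cultured RP-48OVA-LLO190 cells gave 3 libraries with DMSO, 2 with BOM, 3 with DMSO plus interferon gamma (IFNg) for the last 48 h and 2 with BOM plus IFNg for the last 48 h. Flank tumors of the same RP-48OVA-LLO190 line, grown in immunocompetent mice and labelled 16 d, gave 5 libraries with vehicle, 4 with BOM, 5 with an antibody to the checkpoint receptor PD1 (anti-PD1) and 4 with BOM plus anti-PD1. All 10 d and tumor libraries thus derive from 1 line, and the labels give neither the age and strain of the mice nor whether a replicate was a separate culture or animal, so p-values measure no more than the scatter among these libraries, and that scatter may be technical.

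Chemokines are small secreted or membrane-anchored proteins that direct leukocyte migration through G protein-coupled receptors. Cxcl9, Cxcl10 and Cxcl11 are induced by interferons and attract activated T cells and NK cells that carry the receptor Cxcr3. Cx3cl1 and Cxcl16 are made as membrane-bound proteins that metalloproteases can shed, and they act on Cx3cr1 and Cxcr6. Ccl2 attracts monocytes through Ccr2, and Ccl5, a product of T cells, NK cells and myeloid cells, attracts T cells and monocytes.

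The 3 Cxcr3 ligands lie side by side on the minus strand of mouse chromosome 5 in build mm10: Cxcl9 from 92321347 to 92328079, Cxcl10 from 92346638 to 92348889 and Cxcl11 from 92359544 to 92365485. Because Cxcl9 and Cxcl10 were the members with reads that followed IFNg in culture, the 250 bases before their start sites are printed here, 5′ to 3′ on the minus strand (RefSeq, GRCm38.p6; chr5:92328080-92328329 for Cxcl9 and chr5:92348890-92349139 for Cxcl10). Capitals mark matches to the core of the interferon-stimulated response element (ISRE), GAAANNGAA, and to the NF-kB consensus, searched on both strands.
Cxcl9: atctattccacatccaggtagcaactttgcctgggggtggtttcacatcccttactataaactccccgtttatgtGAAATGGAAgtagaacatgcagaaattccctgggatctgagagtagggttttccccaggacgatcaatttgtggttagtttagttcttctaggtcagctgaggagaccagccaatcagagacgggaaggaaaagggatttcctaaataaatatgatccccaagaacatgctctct
Cxcl10: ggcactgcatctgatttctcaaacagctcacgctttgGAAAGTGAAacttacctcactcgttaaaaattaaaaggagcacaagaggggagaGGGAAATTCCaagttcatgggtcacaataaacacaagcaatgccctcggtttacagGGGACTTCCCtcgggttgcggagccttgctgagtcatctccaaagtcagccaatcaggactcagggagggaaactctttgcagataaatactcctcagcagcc
The Cxcl9 window held 1 ISRE core (GAAATGGAA, 175 to 167 bases before the start). The Cxcl10 window held 1 ISRE core (GAAAGTGAA, 213 to 205 bases before the start) and 2 NF-kB matches, GGGAAATTCC (159 to 150 bases before) and GGGACTTCCC (103 to 94 bases before). The GAS motif TTCNNNGAA, an element of IFNg-responsive promoters, was in neither window. Of the 32851 mouse promoter windows of this length, 7.13% held the ISRE core, 3.90% the NF-kB consensus and 7.02% the GAS motif. A match is a description of letters only, and the data hold no measurement of binding.

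Total gene counts per library ran from 8712025 to 9968681 at 96 h, from 5896627 to 9044398 at 10 d and from 5638353 to 13150056 in 17 tumors, while vehicle tumor 1 had 82205546. Levels are given as CPM, the usual scaling of a gene's counts to a common total of gene counts per library, and the 3 tables were counted separately, so levels were tested only within a table. Neuroendocrine markers were present in every table, at a summed 2631 to 3451 CPM in the tumors. In the cultures Ifng had 0 counts in every library. The libraries labelled vehicle tumor 1 and vehicle tumor 2 stood apart in the genes that BOM raised most in culture: over 41 such genes their mean log2 CPM was 3.93 and 3.36, against 2.30 to 2.92 in the other 3 vehicle tumors, 1.70 to 2.80 in the anti-PD1 tumors, 3.61 to 4.003 in the BOM tumors and 3.68 to 3.94 in the combination tumors. In these genes their levels go against their label. The 8 neuroendocrine markers moved little with the 2 libraries. BOM against vehicle called 2 of the 8 higher and 6 lower both with and without them (median log2 difference -0.58 and -0.61). Whether the labels are wrong or RNA was mixed was not tested. Each difference from vehicle over all 5 vehicle tumors therefore carries that doubt about what those 2 libraries are. For the members each is also given without them. For single genes of the other lists only the difference over all 5 vehicle tumors is given. The 2 libraries were set apart by genes that BOM raises, and Cx3cl1, not among the 41, rose with BOM in culture too. Leaving the 2 out therefore widens the Cx3cl1 difference from vehicle and narrows its scatter through the choice itself. Its p-values without them are no separate support.

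In culture without IFNg the Cxcr3 ligands were close to the limit of detection. Cxcl9 had 0 counts in all 6 libraries at 96 h, where 3 counts correspond to at most 0.344 CPM. At 96 h Cxcl10 had 6 and 3 counts in RP-116 with DMSO and BOM, 1 and 1 in RP-48, and 7 and 2 in G8545. These counts were too low for the test, which left out genes with few reads. With no filter on low counts the BOM difference in Cxcl10 was -1.18 on the log2 scale and did not pass (adjusted p 0.964, edgeR quasi-likelihood test). Counts this low limit what could be detected.

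IFNg for the last 48 h was followed by reads from Cxcl9 and Cxcl10 in RP-48OVA-LLO190 cells, both with DMSO and with BOM. Cxcl9 had 0 counts in the 5 libraries without IFNg. With IFNg it stood at 0.897, 1.12 and 1.42 CPM in the DMSO cells (6, 7 and 9 counts) and at 1.45 and 3.65 CPM in the BOM cells (9 and 33 counts). Against a floor of 3 counts over the group, Cxcl9 was at least 7.29-fold higher with IFNg in DMSO cells and at least 11.7-fold higher in BOM cells. It did not reach the count minimum of the test. With no filter on low counts its adjusted p was 0.000711 in DMSO cells and 9.52e-05 in BOM cells (edgeR quasi-likelihood test, Benjamini-Hochberg over all genes).

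Cxcl10 rose with IFNg in both arms. It was at 0, 0.327 and 0.170 CPM in the DMSO cells and at 0 and 0.305 CPM in the BOM cells. With IFNg it was at 1.49, 2.87 and 3.63 CPM in the DMSO cells and at 3.06 and 5.53 CPM in the BOM cells, so every library with IFNg lay above every library without it. The fitted log2 fold change was 3.93 ± 0.79 (SE) in DMSO cells and 4.64 ± 0.90 in BOM cells, with adjusted p of 0.00581 and 0.00458 (edgeR). Few molecules carry these folds: pooled CPM rose 16.9-fold in DMSO cells (51 counts against 3, 95% exact counting interval 5.47 to 84.7) and 28.8-fold in BOM cells (69 counts against 2, interval 7.67 to 242), intervals that cover counting error alone. Cxcl10 and Cx3cl1 were the 2 members that passed the filter at 10 d, and of these Cxcl10 was called in both IFNg comparisons, where 2.27% (DMSO cells) and 2.06% (BOM cells) of 15230 genes were called in either direction. By fitted fold change Cxcl10 ranked 80 among the 297 genes called higher with IFNg in DMSO cells and 72 among 264 in BOM cells. The call in BOM cells was lost without BOM replicate 1 (3.73, adjusted p 0.112) and without replicate 2 of BOM with IFNg (4.10, adjusted p 0.0818). The call in DMSO cells was absent when the 6 DMSO libraries were fitted alone, where Cxcl10 did not reach the count minimum.

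BOM itself did not pass the test for either Cxcr3 ligand in culture. The BOM difference in Cxcl10 was -0.06 ± 1.56 on the log2 scale without IFNg (adjusted p 0.984) and 0.65 ± 0.50 with IFNg present (adjusted p 0.393, edgeR). For Cxcl9 with IFNg present it was 1.11 with no filter (adjusted p 0.306). The test of whether BOM changed the response to IFNg gave 0.71 ± 1.62 for Cxcl10 (adjusted p 0.999), and it called 0% of all genes and 0 of the 2 members (0 of 2 at an unadjusted p under 0.05, 0 of 2 by DESeq2 and 0 of 2 by limma). Over all 15230 genes that test had 725 with an unadjusted p under 0.05, and DESeq2 called 13 and limma 0.

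**Figure D1:**
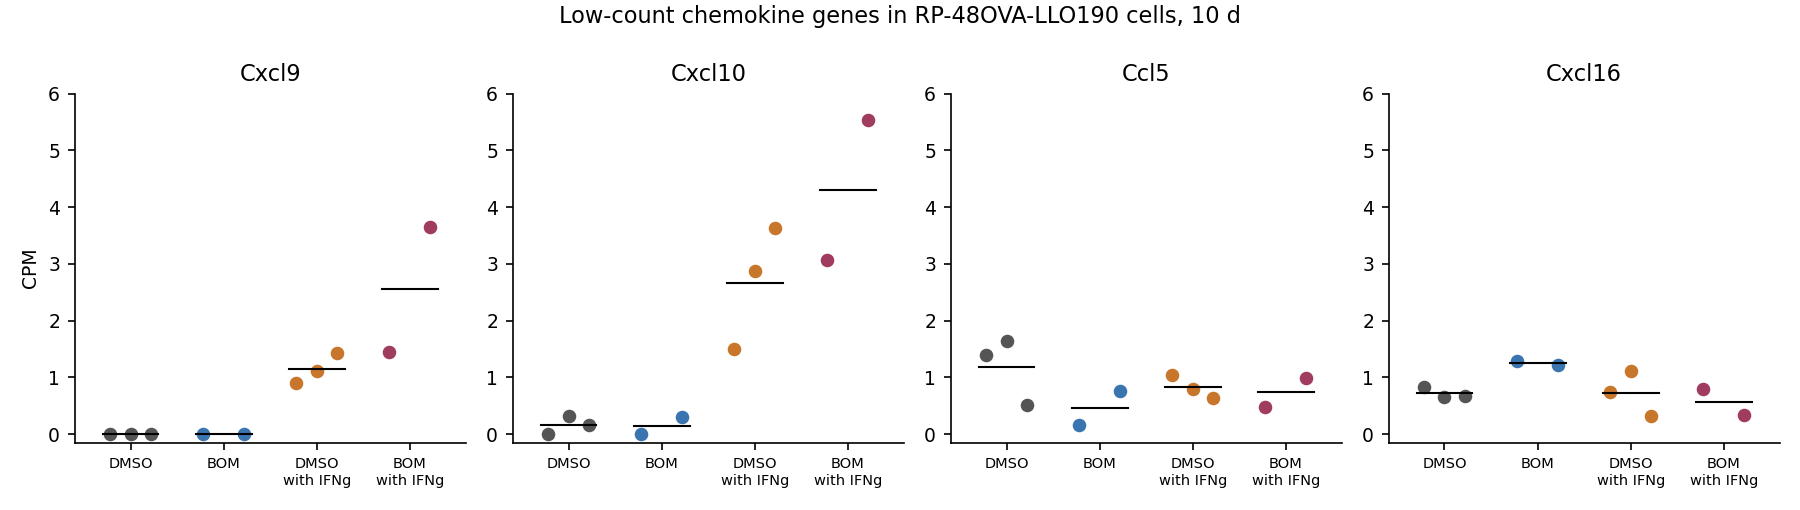
Level of Cxcl9, Cxcl10, Ccl5 and Cxcl16 (CPM, linear axis) in each of the 10 libraries of RP-48OVA-LLO190 cells at 10 d, by treatment; each point is a library. Cxcl9 and Cxcl10 are at or near 0 without IFNg and above it in all 5 libraries with IFNg, and Cxcl10 is highest, at 5.53 CPM, in a library with BOM and IFNg.

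Cx3cl1, the membrane-bound fractalkine that attracts Cx3cr1-bearing monocytes, NK cells and T cells, was the member with the most reads in culture (mm10 chromosome 8, 94772009 to 94782427, plus strand). It rose with BOM at 10 d. Cx3cl1 was at 4.47, 5.57 and 5.77 CPM with DMSO and at 23.2 and 21.5 CPM with BOM. With IFNg present it was at 3.89, 10.2 and 8.22 CPM with DMSO and at 28.5 and 29.6 CPM with BOM. Both BOM groups lay above both DMSO groups, with no overlap. The BOM difference was 4.06-fold without IFNg (log2 2.02 ± 0.26, adjusted p 2.28e-05) and 3.76-fold with it (log2 1.91 ± 0.25, adjusted p 1.75e-05, edgeR). Of all genes 20.3% were called for BOM at 10 d and 23.1% for BOM with IFNg present, and Cx3cl1 was 1 of the 2 tested members called in each. It ranked 363 among the 1837 genes called higher with BOM and 431 among the 1979 called higher with IFNg present, so its fold change was not at the far end of the BOM response.

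IFNg did not pass the test for Cx3cl1. The IFNg difference was 0.50 ± 0.27 on the log2 scale in DMSO cells (adjusted p 0.677) and 0.39 ± 0.25 in BOM cells (adjusted p 0.686), and the difference between the BOM effects with and without IFNg was -0.11 ± 0.37 (adjusted p 0.999, edgeR). Cxcl10 and Cx3cl1 thus split at 10 d: Cxcl10 was called for IFNg and not for BOM, Cx3cl1 for BOM and not for IFNg, although the 2 genes' effects were not tested against each other. Fibroblast marker genes moved with BOM in the same libraries. Without IFNg their summed level was 17.0 to 21.0 CPM with DMSO and 59.1 to 66.7 CPM with BOM. Of the 6 tested, 5 rose, where 20.3% of all genes were called. Endothelial marker genes moved too, from 9.50 to 11.8 CPM with DMSO to 34.4 to 49.98 CPM with BOM, and from 10.1 to 14.5 CPM to 53.0 to 54.9 CPM with IFNg present. Of the 2 tested, Kdr, a receptor of vascular endothelial growth factor, rose (2.08 ± 0.21, and 2.26 ± 0.20 with IFNg present). The part of either marker list in the Cx3cl1 result was not tested.

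At 96 h the Cx3cl1 level with BOM was above that with DMSO in each of the 3 lines, by very different amounts. It went from 36.3 to 43.2 CPM in RP-116 (1.19-fold), from 9.60 to 29.99 CPM in RP-48 (3.12-fold) and from 9.54 to 108.7 CPM in G8545 (11.4-fold). RP-116 had the highest level with DMSO and the smallest ratio. Over the lines the fitted difference, with cell line as a block, was 1.74 ± 0.54 on the log2 scale and did not pass (adjusted p 0.584, edgeR). That comparison called 0% of 13333 genes and 0 of the 2 tested members. At an unadjusted p under 0.05 it had 812 genes and 1 member, Cx3cl1, and DESeq2 called 59 genes and limma 3, with no member among them. With no filter on low counts the Cx3cl1 adjusted p was 9.59e-05 at nearly the same fold change.

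**Figure D2:**
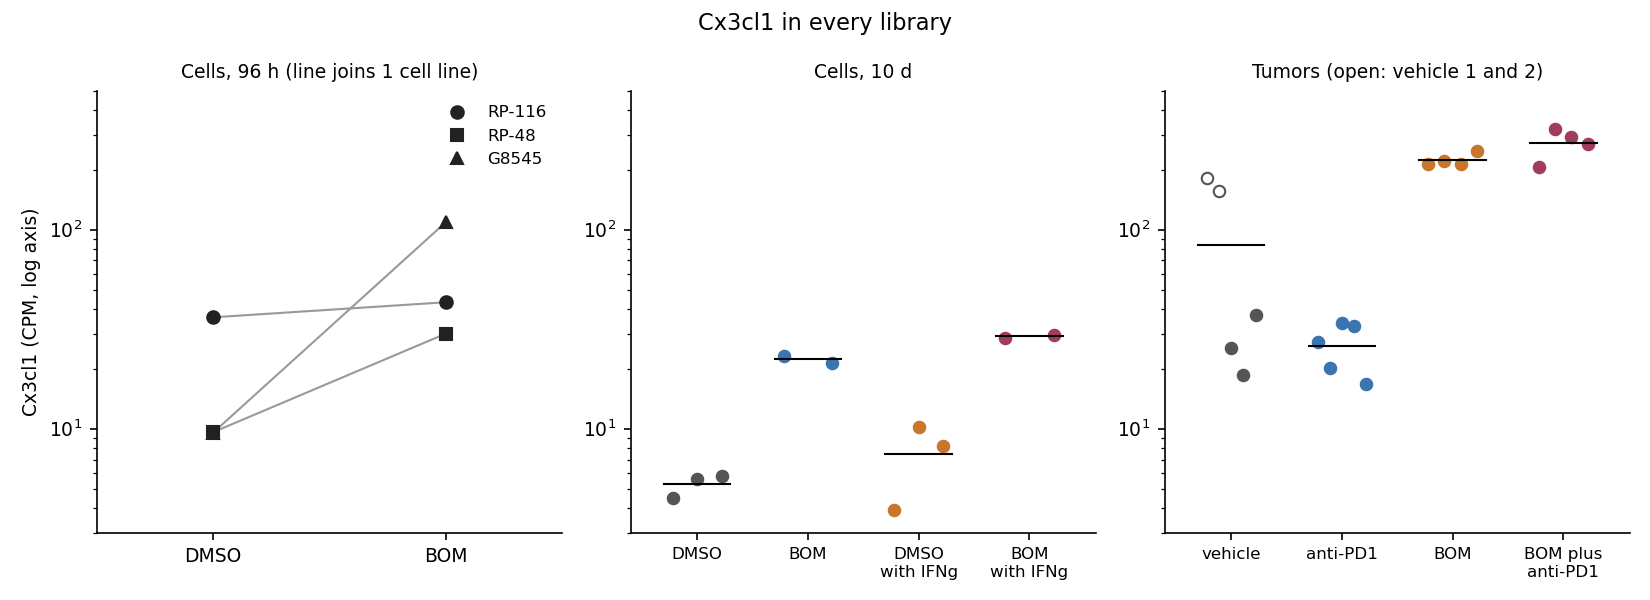
Cx3cl1 level (CPM, log axis) in every library at 96 h, at 10 d and in the tumors, which were counted separately; points are libraries, bars at 10 d and in the tumors are group means, lines at 96 h join the DMSO and BOM libraries of a cell line (the RP-48 and G8545 points with DMSO overlap), and open symbols are vehicle tumors 1 and 2. BOM libraries are above DMSO libraries in all 3 lines and at 10 d, and vehicle tumors 1 and 2 lie near the BOM tumors rather than near the other 3 vehicle tumors.

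The other members gave few reads in culture. Cxcl16, a membrane-bound ligand of Cxcr6 (mm10 chromosome 11, 70453983 to 70459984, minus strand), had 5 and 19 counts in RP-116 with DMSO and BOM, 12 and 9 in RP-48 and 4 and 12 in G8545, with a fitted difference of 0.87 ± 0.57 (adjusted p 0.916, edgeR). At 10 d it had 2 to 8 counts per library. Ccl5 had 0 counts at 96 h and 1 to 10 per library at 10 d. Ccl2 had 1 count in all at 96 h, and at 10 d all of its 9 counts were in replicate 2 of BOM with IFNg. Cxcl11 had 6 counts over the 10 libraries at 10 d, from 0 to 2 in each. Cxcr3 had 2 counts in all at 96 h and 0 at 10 d, where 3 counts correspond to at most 0.509 CPM. None of these levels at 10 d reached the count minimum. With no filter on low counts, no 10 d difference in Cxcl16, Ccl5, Ccl2 or Cxcl11 passed. The lowest adjusted p was 0.109 (edgeR), for Ccl2 with BOM against DMSO with IFNg present. Counts this low limit what could be detected.

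Most of the listed regulators upstream of these chemokines had enough reads to test in culture, while Ifng and Ifnb1 had 0 counts in every library. Of a list of 20 inducers of interferon chemokines (receptors, kinases, transcription factors and sensors), 16 were tested at 10 d. IFNg raised 6 and lowered 0 of them in DMSO cells, where 2.27% of all genes were called. The list median was 0.42 on the log2 scale against -0.01 over all genes. Irf1, an interferon-induced transcription factor, rose by 4.39 ± 0.16 on the log2 scale and Stat2 by 1.97 ± 0.10. In BOM cells 6 rose and 0 fell, again with Irf1 (3.73) and Stat2 (2.84), where 2.06% of all genes were called. BOM alone raised 3 of the 16 and lowered 0, with a median of 0.06, a share close to the 20.3% of all genes called for BOM: Jak1, a kinase of the interferon receptors (0.72 ± 0.11), Irf1 (0.81 ± 0.19) and Ifngr2, a chain of the IFNg receptor (0.82 ± 0.21). With IFNg present BOM raised 7 and lowered 0 (median 0.26), where 23.1% of all genes were called, among them Irf7 (1.75), Stat2 (0.69) and Jak1 (0.67). The marker genes of T cells and macrophages were low in these cultures, at a summed 6.65 to 13.1 CPM over 9 T cell genes and 6.70 to 15.6 CPM over 10 macrophage genes, with Cd3d, Cd3g, Adgre1 and C1qa at 0 in all 10 libraries.

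Other chemokine genes had larger fold changes with BOM in culture than any member. Of 3 other CXC and XC ligands tested at 10 d, 2 rose with BOM: Cxcl14 by 4.06 ± 0.16 and Cxcl12, the ligand of Cxcr4, by 3.997 ± 0.34 on the log2 scale, and both also rose with IFNg present (3.95 and 3.33). Ackr3, an atypical receptor that binds Cxcl12 and Cxcl11, rose by 2.77 ± 0.39, and Ackr1, an atypical receptor that binds Ccl2 and Ccl5, fell (-1.19 ± 0.34). They were the 2 called of 3 tested genes for receptors of the member ligands. BOM at 10 d called 20.3% of all genes, and 23.1% with IFNg present. Cxcr4 rose by 0.60 ± 0.18, and by 0.92 ± 0.18 with IFNg present. Adam10, a protease that sheds Cx3cl1 and Cxcl16, rose by 0.45 ± 0.12 with BOM. None of 3 other CC ligands tested passed.

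In the tumors 7 members had reads, and Cxcl9 was at 8.45 CPM or more in each, against at most 3.65 CPM in a culture library of the other, separately counted tables. Per kilobase of gene length (RPKM), the median over the 18 tumors was 43.1 for Cx3cl1, 14.6 for Cxcl9, 5.93 for Cxcl16, 3.12 for Ccl5, 2.64 for Ccl2, 1.78 for Cxcl10 and 0.422 for Cxcr3. The ranges of neighbours in this order all overlapped. Cx3cl1 was above Cxcl9 in 12 of 18 tumors, and Cxcl9 above Cxcl16 in 18 of 18. The other neighbouring pairs kept their order in 13, 12, 12 and 17 tumors. At 10 d in culture the RPKM median was 2.35 for Cx3cl1 and 0.149 for Cxcl9. A bulk tumor holds RNA of cancer cells, stroma and immune cells, so fewer cells of a type and less RNA per cell cannot be told apart.

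The combination of BOM and anti-PD1 differed from anti-PD1 alone in 3 members, Cx3cl1, Cxcl10 and Cxcl16, all of them higher with the combination. This was 3 of the 6 members tested, in a comparison that called 32.4% of all 14332 genes. Vehicle tumors 1 and 2 enter this comparison through the shared estimate of the spread. Without them 5 of the 6 were called, and the share of all genes called in that fit is not given here. Leaving them out narrowed the spread (the Cx3cl1 SE went from 0.52 to 0.20), so that count is no separate support. Cxcl9 and Ccl5 had fitted differences in the same direction and missed the threshold, and the Ccl2 difference was within its error. Cxcr3, at 0.135 to 2.66 CPM with 223 counts in all tumors, did not reach the count minimum.

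Cx3cl1 was at 206, 321, 292 and 271 CPM with the combination and at 27.1, 20.1, 34.1, 32.7 and 16.7 CPM with anti-PD1 alone. The groups did not overlap, and the difference was 10.2-fold (log2 3.36 ± 0.52, adjusted p 0.000188, edgeR), rank 73 among the 2263 genes called higher. Cxcl10 was at 18.7, 4.19, 11.9 and 5.96 CPM with the combination and at 5.72, 1.04, 1.23, 1.58 and 2.35 CPM with anti-PD1. Combination tumor 2 lay below anti-PD1 tumor 1, so the Cxcl10 groups overlapped. Its difference was 4.16-fold (log2 2.06 ± 0.60, adjusted p 0.0138), and without combination tumor 1 the adjusted p was 0.0621. Cxcl16 was at 30.3, 25.6, 18.3 and 29.3 CPM with the combination and at 21.3, 13.5, 13.7, 6.73 and 8.44 CPM with anti-PD1. Here too a single anti-PD1 tumor, tumor 1, lay inside the range of the combination, and the difference was 2.005-fold (log2 1.003 ± 0.31, adjusted p 0.0190).

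Cxcl9 was at 246, 61.5, 93.1 and 53.7 CPM with the combination and at 93.8, 36.5, 21.8, 8.45 and 18.3 CPM with anti-PD1. Its difference was 1.65 ± 0.64 on the log2 scale (adjusted p 0.0551), and combination tumor 1 was the highest of all 18 tumors. Ccl5, an attractant of T cells (mm10 chromosome 11, 83525778 to 83530518, minus strand), was at 19.1, 4.55, 10.4 and 7.38 CPM with the combination and at 7.14, 2.43, 2.81, 1.15 and 1.66 CPM with anti-PD1. Its difference was 1.75 ± 0.66 (adjusted p 0.0503). Over 28 other ways of processing, Cxcl9 was called in 10 and Ccl5 in 15. Leaving out a single library brought the Cxcl9 call for anti-PD1 tumor 1 (2.41, adjusted p 0.00759), vehicle tumor 1, combination tumors 2 and 4 and BOM tumors 1 and 3 (adjusted p 0.0370 to 0.0491). It brought the Ccl5 call for anti-PD1 tumor 1 (2.35, adjusted p 0.0155), vehicle tumors 1 and 5, combination tumor 2 and BOM tumors 2 and 3 (adjusted p 0.0286 to 0.0484). Ccl2 (mm10 chromosome 11, 82035571 to 82037453, plus strand) was at 6.73, 2.99, 1.56 and 1.14 CPM with the combination and at 6.67, 0.347, 6.51, 3.15 and 0.55 CPM with anti-PD1. The Ccl2 groups overlapped, with a difference of -0.17 ± 0.69 (adjusted p 0.881). For the 2 interferon-induced Cxcr3 ligands in the table the median difference was 1.85, against -0.01 over all genes tested.

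**Figure D3:**
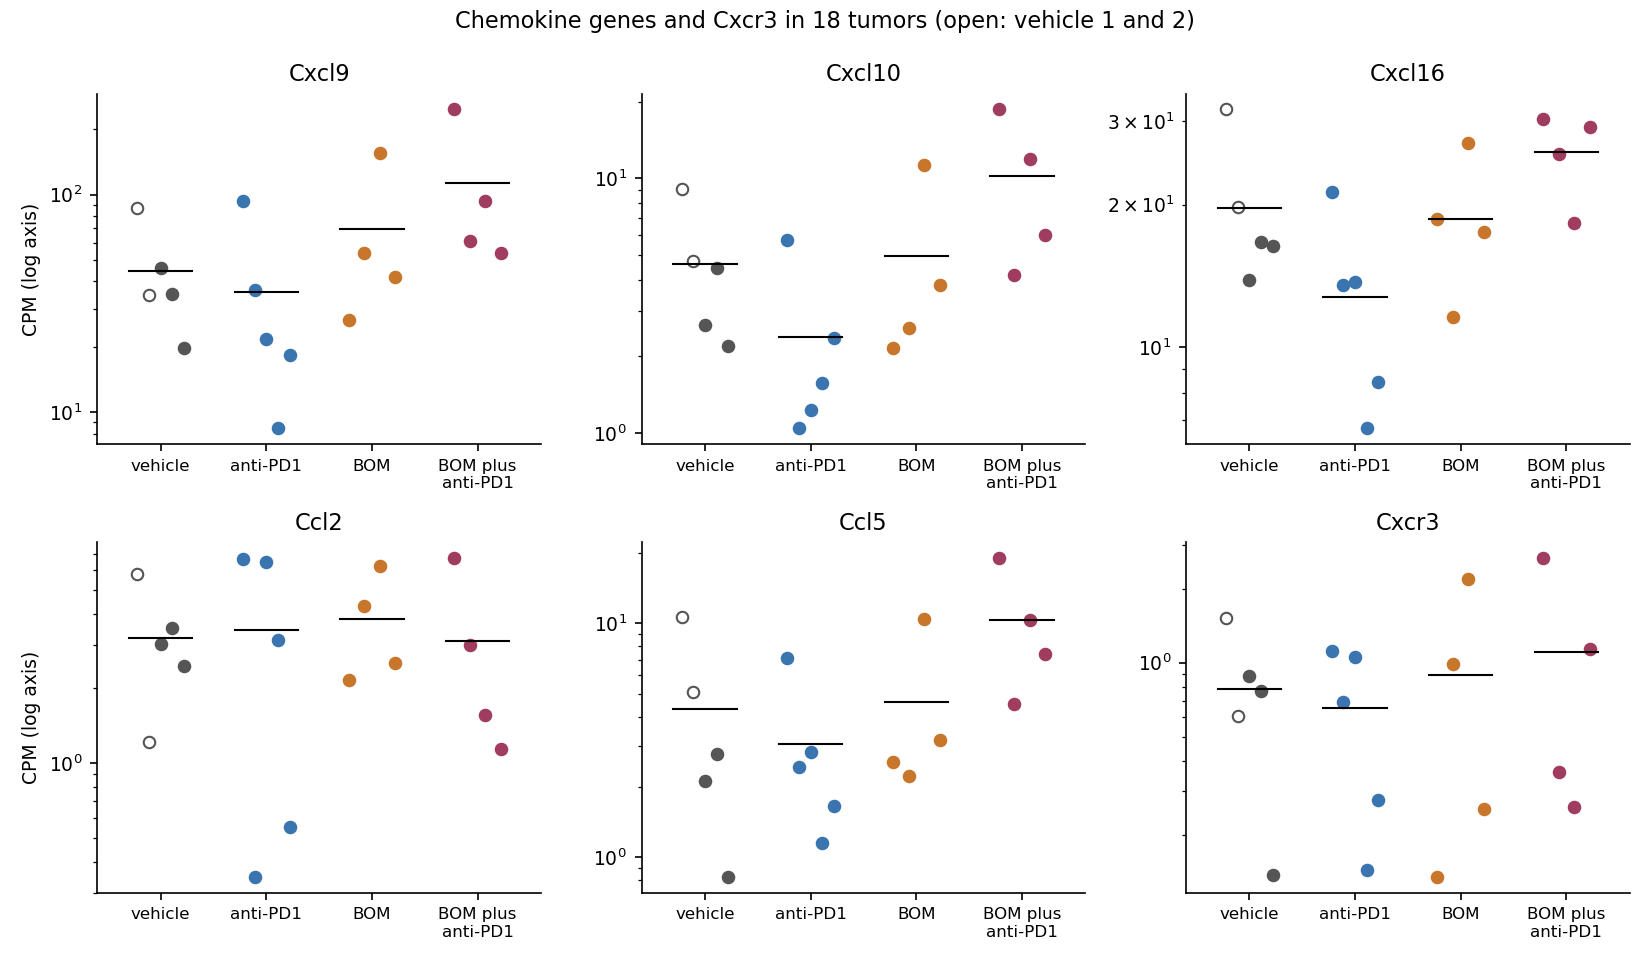
Level of 6 members (CPM, log axis) in each of the 18 tumors by treatment; points are tumors, bars are group means, and open symbols are vehicle tumors 1 and 2. The combination group has the highest mean for Cxcl9, Cxcl10, Cxcl16 and Ccl5, its points overlap those of other groups, and Ccl2 shows no separation.

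Against vehicle, Cx3cl1 was the member that passed for the combination: 1 of 6 tested, where 10.7% of all genes were called. The libraries labelled vehicle tumors 1 and 2 had 183 and 156 CPM of Cx3cl1, and vehicle tumors 3, 4 and 5 had 25.5, 18.5 and 37.1 CPM. The combination (272 ± 48.6 CPM, SD, n = 4) lay above all 5 vehicle tumors (84.0 ± 78.8 CPM, SD, n = 5), with a 3.10-fold difference (log2 1.63 ± 0.47, adjusted p 0.0337, edgeR), rank 19 among 708 genes called higher. This call was not stable to single libraries: the adjusted p was 0.0771, 0.0648 and 0.0886 without vehicle tumor 3, 4 or 5, and 0.0728, 0.0590 and 0.0529 without combination tumor 2, 3 or 4. Without vehicle tumors 1 and 2 the difference was 9.97-fold (log2 3.32 ± 0.24, adjusted p 5.01e-08, edgeR), in a comparison that then called 22.7% of all genes. Those 2 were set apart by BOM-raised genes, so that p-value is no separate support.

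Ccl5 was called as well when those 2 libraries were left out. They were set apart by BOM-raised genes and had the highest Ccl5 of the vehicle tumors, so that call is no separate support. Ccl5 in the vehicle tumors was 10.7 and 5.10 CPM in tumors 1 and 2 and 2.13, 2.76 and 0.825 CPM in tumors 3 to 5. The combination differed from vehicle by 1.15 ± 0.62 on the log2 scale with all tumors (adjusted p 0.256), by 1.87 without vehicle tumor 1 alone (adjusted p 0.0425), and by 2.44 ± 0.70, or 5.44-fold, without both (adjusted p 0.0171, edgeR). Cxcl9 was at 87.0, 34.5, 46.3, 34.9 and 19.7 CPM with vehicle. Its difference was 1.31 ± 0.62 (adjusted p 0.186) with all tumors and 1.76 ± 0.73 (adjusted p 0.0967) without vehicle tumors 1 and 2. Cxcl10 was at 9.05, 4.71, 2.66, 4.44 and 2.20 CPM with vehicle. Its difference was 1.07 ± 0.55 (adjusted p 0.234) and 1.71 ± 0.65 (adjusted p 0.0701). Cxcl16 was at 31.8, 19.8, 13.8, 16.7 and 16.4 CPM with vehicle, and its difference was 0.36 with all tumors and 0.72 ± 0.31 without the 2 (adjusted p 0.114). Vehicle tumor 1 was the highest vehicle tumor for every member. Ccl2 was at 5.80, 1.22, 3.02, 3.53 and 2.47 CPM with vehicle and differed by -0.09 with all tumors and 0.043 without the 2. None of Cxcl9, Cxcl10, Cxcl16 and Ccl2 passed against vehicle in either form.

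With BOM alone, no member passed with all tumors, and Cx3cl1 alone passed without vehicle tumors 1 and 2. Cx3cl1 was at 213, 222, 215 and 247 CPM with BOM, above all 5 vehicle tumors. With all tumors the difference was 1.34 ± 0.47 on the log2 scale (adjusted p 0.0625), and it passed without vehicle tumor 1 (1.85, adjusted p 0.00700) or without vehicle tumor 2 (1.67, adjusted p 0.0264). Without both it was 8.17-fold (log2 3.03 ± 0.24, adjusted p 1.19e-07, edgeR), where 23.3% of all genes were called, against 14.5% with all tumors. Because these libraries were set apart by BOM-raised genes, the passes without 1 or both of them are no separate support. With all tumors BOM called 0 of the 6 members tested (1 at an unadjusted p under 0.05, 0 by DESeq2 and 1 by limma). Cxcl9 was at 26.4, 53.7, 155.6 and 41.7 CPM with BOM, Cxcl10 at 2.16, 2.59, 11.3 and 3.81 CPM and Ccl5 at 2.56, 2.22, 10.5 and 3.18 CPM. In each of these 3 genes BOM tumor 3 was the highest of the group, and the BOM and vehicle tumors overlapped. Their differences were 0.58 ± 0.62, 0.02 ± 0.57 and -0.03 ± 0.64, and without vehicle tumors 1 and 2 they were 1.04, 0.66 and 1.27 ± 0.70, with adjusted p of 0.339, 0.521 and 0.214. Without BOM tumor 3 the signs were the other way for Cxcl9 (-0.16) and Cxcl10 (-0.75). Cxcl16 was at 18.6, 11.6, 27.0 and 17.5 CPM and Ccl2 at 2.16, 4.32, 6.27 and 2.54 CPM, with differences of -0.12 ± 0.30 and 0.20 ± 0.66, and of 0.24 and 0.34 without vehicle tumors 1 and 2.

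Anti-PD1 alone called 0% of all genes and 0 of the 6 members against vehicle (2 members at an unadjusted p under 0.05, 0 by DESeq2 and 0 by limma). Over all genes 1411 had an unadjusted p under 0.05, and DESeq2 called 86 and limma 0. The fitted differences were -1.73 ± 0.49 for Cx3cl1 (adjusted p 0.264), -0.99 ± 0.57 for Cxcl10 (adjusted p 0.580) and -0.64 ± 0.29 for Cxcl16 (adjusted p 0.487, edgeR). Without vehicle tumors 1 and 2 they were -0.05 ± 0.23 for Cx3cl1, -0.36 ± 0.66 for Cxcl10 and -0.30 ± 0.31 for Cxcl16, and that comparison also called 0% of genes. Ccl5 went from -0.60 to 0.69 and Cxcl9 from -0.34 to 0.10, so the direction of both depends on those 2 libraries. Ccl2 was at 0.07 with all tumors and 0.20 without the 2.

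Adding anti-PD1 to BOM called 0.00698% of all genes, which is 1 gene, and 0 of the 6 members (0 at an unadjusted p under 0.05, 0 by DESeq2 and 0 by limma). The differences were 1.18 ± 0.68 for Ccl5 (adjusted p 0.721), 1.05 ± 0.60 for Cxcl10 (adjusted p 0.718) and 0.29 for Cx3cl1. The test of whether the effect of BOM differed with anti-PD1 also called 0% of genes and 0 of 6 members (3 at an unadjusted p under 0.05, 0 by DESeq2 and 0 by limma). Over all genes it had 1258 with an unadjusted p under 0.05, and DESeq2 called 6 and limma 0. Its estimates were 2.01 ± 0.70 for Cx3cl1 (adjusted p 0.458), 2.03 ± 0.83 for Cxcl10 (adjusted p 0.509) and 1.12 ± 0.43 for Cxcl16 (adjusted p 0.492, edgeR). For Ccl5, Cxcl9 and Ccl2 they were 1.78, 1.07 and -0.36. Without vehicle tumors 1 and 2 the estimates were 0.34 ± 0.30 for Cx3cl1, 1.40 ± 0.86 for Cxcl10 and 0.77 ± 0.42 for Cxcl16, and 0.49, 0.62 and -0.49 for Ccl5, Cxcl9 and Ccl2, with 0% of genes called. The comparisons share groups: anti-PD1 tumors, BOM tumors, combination tumors and vehicle tumors each enter more than 1 of them.

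**Figure D4:**
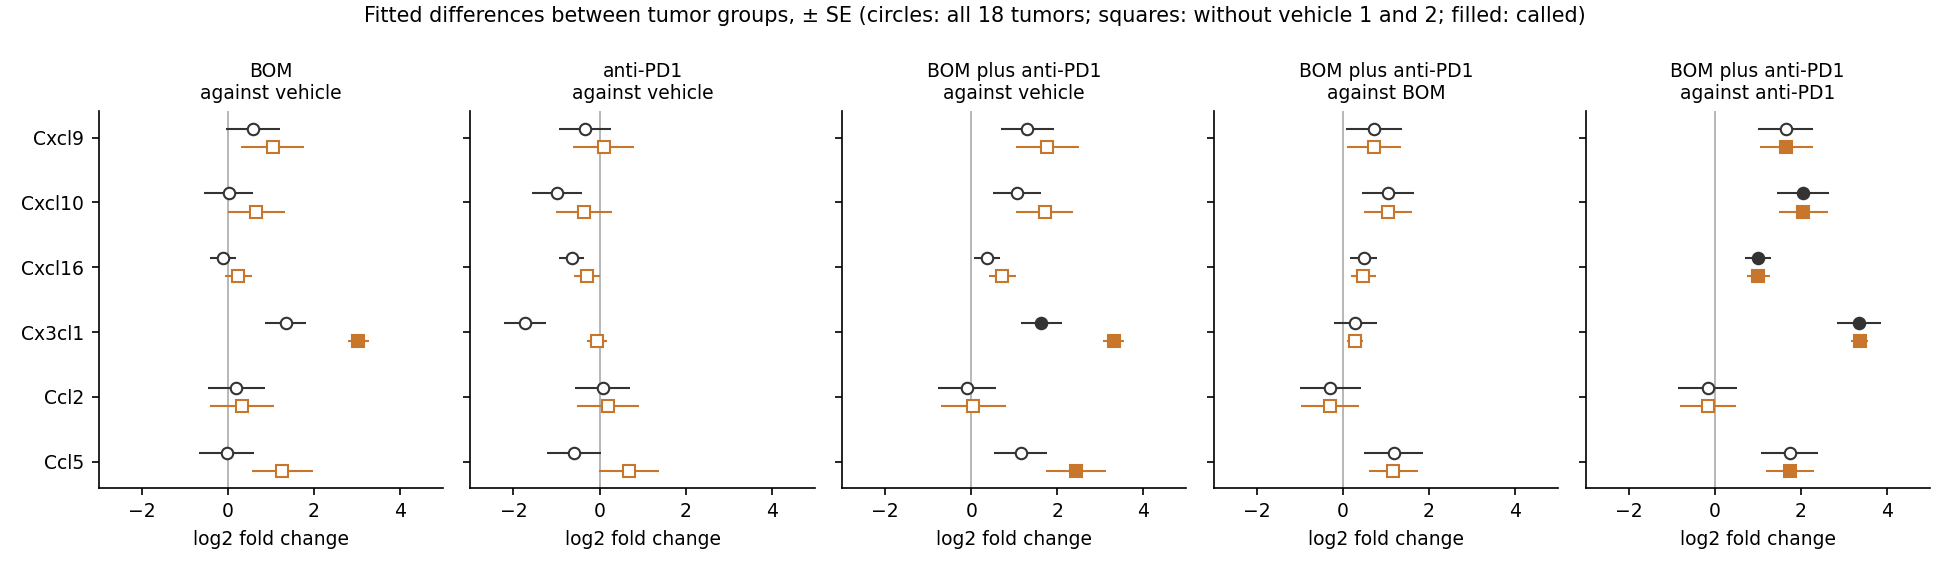
Fitted log2 fold change with its standard error for 6 members in 5 tumor comparisons; circles use all 18 tumors, squares leave out vehicle tumors 1 and 2, and filled symbols passed an adjusted p of 0.05. For Cx3cl1 the differences from vehicle move when the 2 libraries are left out, from 1.63 to 3.32 for the combination, and the difference between the combination and anti-PD1 barely moves.

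The same list of inducers was followed in the tumors, where 16 were tested. Against anti-PD1 the combination raised 9 and lowered 0, where 32.4% of all genes were called. The list median was 0.45 on the log2 scale against -0.01 over all genes. Among the 9, Irf1 rose by 1.30 ± 0.22, Tmem173 (STING, a sensor of cytosolic DNA signals) by 1.13 and Ifnar1, a chain of the type I interferon receptor, by 0.41. Against vehicle the combination raised 2 and lowered 0, Irf1 (0.83) and Tmem173 (0.75), where 10.7% of all genes were called. Without vehicle tumors 1 and 2 it raised 8, where 22.7% of all genes were called. BOM alone raised Ifnar1 (0.29) with all tumors, where 14.5% of all genes were called. It raised 6 of 16 without those 2, where 23.3% were called. Of 7 receptors of the member ligands tested, 2 were higher with the combination than with anti-PD1: Ccrl2, an atypical receptor (1.93 ± 0.53), and Cxcr6, the receptor of Cxcl16 on activated T cells (1.87 ± 0.66). Cxcr4 was lower (-0.41 ± 0.11). Of 14 other CC ligands, Ccl28 was higher (1.36 ± 0.25) and Ccl25 lower (-0.31 ± 0.10), and Ccl28 was also higher against vehicle (0.99). Of 5 other CXC ligands, Cxcl17, a mucosal chemokine, was higher against anti-PD1 (4.60 ± 0.76), and Cxcl13, the B cell attractant, was lower against vehicle (-1.11). Against anti-PD1 the called share of the member-ligand receptors was near the 32.4% of all genes. The shares of the other CC and CXC ligands were below it. Adam10 was higher against anti-PD1 by 0.22 ± 0.08.

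Marker genes of immune cells were measured in the same tumors. The summed level of 9 T cell markers was 21.1 to 45.2 CPM with the combination, 8.17 to 26.2 CPM with anti-PD1, 10.7 to 39.1 CPM with BOM and 11.5 to 35.9 CPM with vehicle. In the separately counted 10 d cultures it was 6.65 to 13.1 CPM. The lowest anti-PD1, BOM and vehicle tumors lie within that culture range. Against anti-PD1 the combination raised 2 of the 9 and lowered 0, Cd4 by 1.82 ± 0.51 and Cd8a by 2.23 ± 0.75 on the log2 scale, with a list median of 1.18, in a comparison that called 32.4% of all genes. The summed level of 10 macrophage and monocyte markers was 518 to 1150 CPM with the combination, 211 to 1039 CPM with anti-PD1, 433 to 1103 CPM with BOM and 475 to 1335 CPM with vehicle, and Cd14 (1.89 ± 0.39) was the 1 of 10 that was higher with the combination than with anti-PD1. Both shares are below that of all genes. All of these markers had reads in the tumors.

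Genes of other marker lists also passed in these comparisons. Which cells they come from was not tested. The dendritic list summed to 55.8 to 77.2 CPM in the 10 d cultures of SCLC cells and to 46.4 to 103.8 CPM in the tumors. BOM also raised Pdgfra and Kdr in the 10 d cultures. Against anti-PD1 the combination was higher in the dendritic list gene Zbtb46 (0.85 ± 0.14, 1 of 5 tested). Pdgfra (1.05 ± 0.32, 1 of 7 fibroblast markers) and Kdr (0.52 ± 0.19, 1 of 5 endothelial markers) were higher too. The fibroblast and endothelial list medians went the other way, at -0.96 and -0.28 on the log2 scale, and the dendritic median was 0.53. These 3 shares lie below the 32.4% of all genes called in that comparison. The B cell gene Cd79a was lower (-1.28 ± 0.38, the 1 tested). Of 8 neuroendocrine markers 3 were lower and 0 higher, a share near the 32.4% of all genes: Uchl1 (-0.67), Calca (-1.22) and Syp (-0.83). With BOM against vehicle all 8 neuroendocrine markers were called, where 14.5% of all genes were called. Of the 8, 2 were higher, among them Insm1 (0.41), and 6 lower, among them Calca (-1.01). The counts were the same without vehicle tumors 1 and 2, where 23.3% of all genes were called. For BOM against vehicle Zbtb46 was also higher (0.62), though the dendritic list median was -0.31. Gzma, a granzyme gene of cytotoxic cells, was lower (-1.86 ± 0.58) with all tumors. Of 5 NK and cytotoxic cell markers, 0 passed without the 2. The summed level of 5 skeletal muscle markers ran from 2.24 CPM in a combination tumor to 1052 CPM in a BOM tumor. The part of any marker list in the chemokine differences was not tested.

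Over the 18 tumors, 5 members were set against the mean log2 CPM of each marker list, 10 relations in all, with p-values from 100000 permutations, two-sided, adjusted over the 10. Cx3cl1 was left out because its levels fall into 2 separate clusters. Ccl5 followed the T cell markers most closely (Pearson r 0.932, Spearman rho 0.917, adjusted p 6.67e-05). For Cxcl9 r was 0.855 (rho 0.818, adjusted p 6.67e-05), for Cxcl10 0.828 (rho 0.837, adjusted p 6.67e-05) and for Cxcl16 0.824 (rho 0.810, adjusted p 1e-04). Ccl2 was the exception, at r 0.130 (rho 0.189, adjusted p 0.608). Leaving out the 2 tumors farthest from the median marker level gave r of 0.919 for Ccl5, 0.772 for Cxcl9, 0.787 for Cxcl10, 0.728 for Cxcl16 and 0.0699 for Ccl2. After centring each treatment group on its mean, r was 0.909, 0.821, 0.775, 0.796 and 0.147 in the same order.

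With the macrophage markers all 5 relations passed, Ccl2 included. Ccl2 had r 0.742 (rho 0.703, adjusted p 0.000486), Cxcl9 0.801 (rho 0.792, adjusted p 0.00018), Cxcl16 0.790 (rho 0.713, adjusted p 0.000233), Ccl5 0.756 (rho 0.725, adjusted p 0.0006) and Cxcl10 0.696 (rho 0.655, adjusted p 0.00148). Without the 2 farthest tumors r was 0.659 for Ccl2, 0.821 for Cxcl9, 0.692 for Cxcl16, 0.727 for Ccl5 and 0.702 for Cxcl10, and centred on the group it was 0.763, 0.796, 0.772, 0.797 and 0.655. The libraries behind these points share depth and scaling across genes. For neither marker list was the same test run over all genes. The passes therefore cannot be read as a trait of these members.

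**Figure D5:**
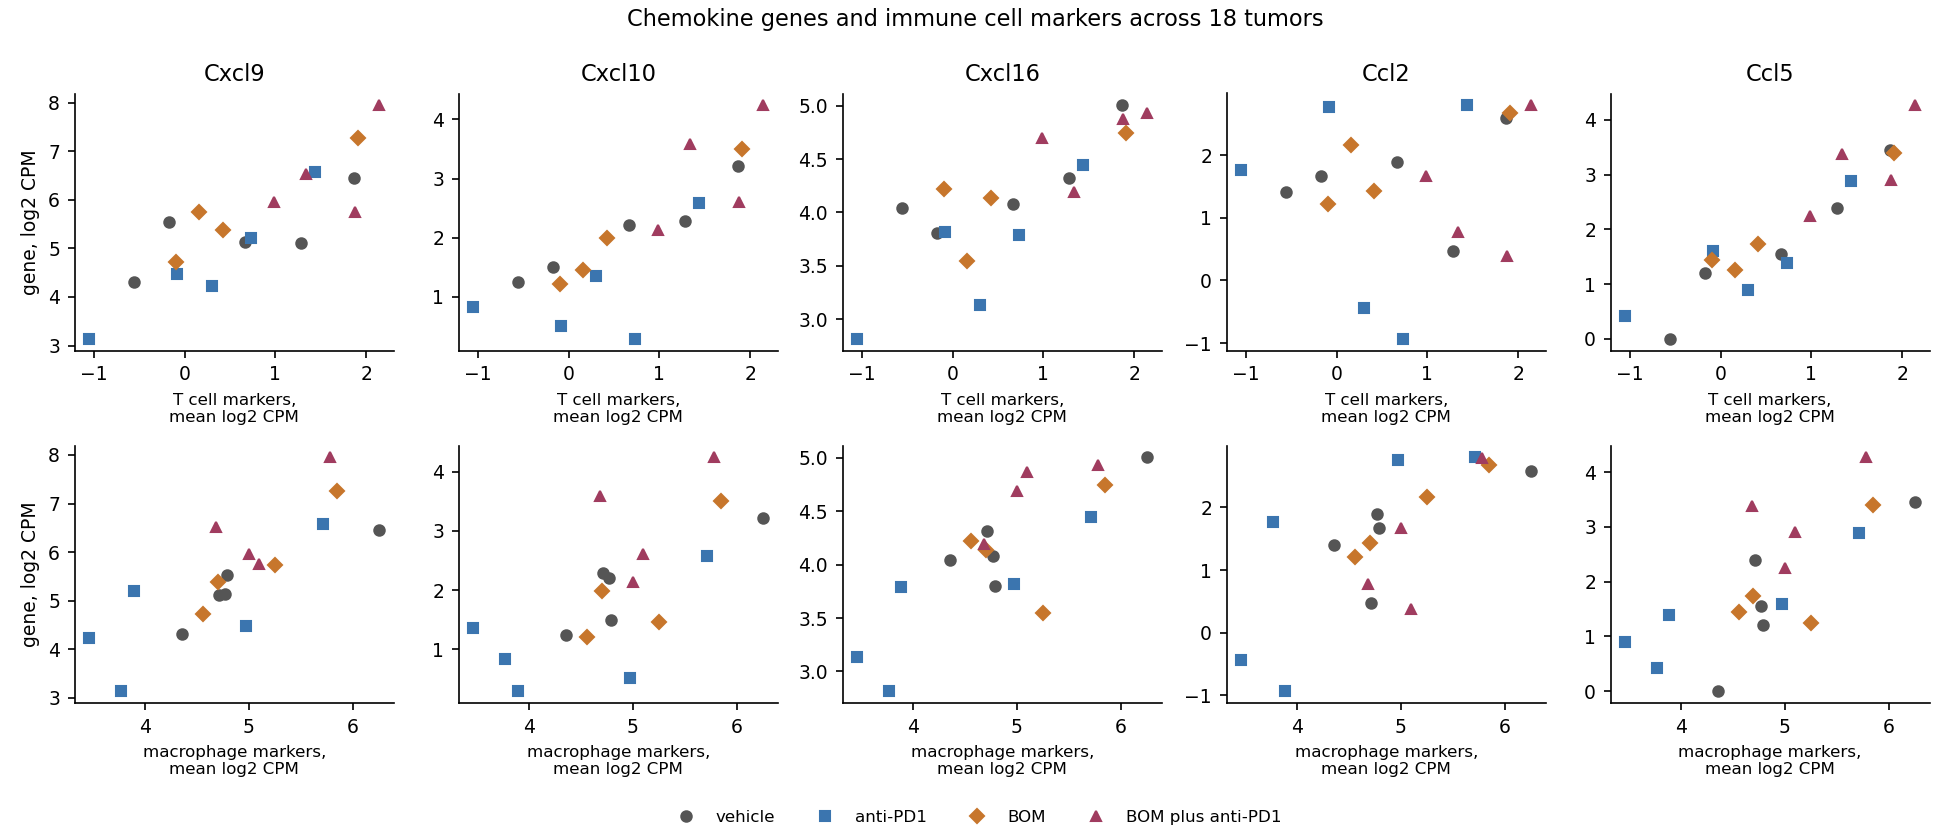
Level of 5 members (log2 CPM) against the mean log2 CPM of 9 T cell markers (upper row) and 10 macrophage and monocyte markers (lower row) in the 18 tumors, colored by treatment. Ccl5, Cxcl9, Cxcl10 and Cxcl16 climb with both marker levels, and Ccl2 climbs with the macrophage level alone.

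Among themselves the members fell into the same pattern over the tumors, given as a description: r was 0.887 between Cxcl9 and Ccl5, 0.879 between Cxcl10 and Ccl5 and 0.844 between Cxcl9 and Cxcl10, while Ccl2 had r of 0.178 to 0.399 with the others. Of 13043 genes compared over the 18 tumors, those closest to Cxcl9 were the guanylate-binding protein genes Gbp2 (r 0.938), Gbp5 (0.936) and Gbp7 (0.927), members of a multigene family. Closest to Ccl5 were Socs1 (0.957), Gbp4 (0.954) and Gbp9 (0.952), and closest to Cxcl10 were Il2rb (0.931), Serpina3f (0.929) and Irf9 (0.929). Among those closest to Cxcl16 were Lgals3bp (0.934) and Tyrobp (0.928). Closest to Ccl2 were the macrophage genes Mrc1 (0.929) and F13a1 (0.920) and the chemokine gene Ccl9 (0.916). Cx3cl1 had a different set, Aldoc (0.991), Sox9 (0.989) and Dapk2 (0.988), over tumors that fall into 2 clusters of its level. These r values carry no test, and the libraries share depth and treatment.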

How the data were processed

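RNA was extracted with TRIzol and libraries were made from 500 ng of RNA with the NEBNext Ultra RNA kit, which does not mark strand, per the labels' protocols; the labels name polyA RNA for the 96 h and tumor libraries and total RNA for the 10 d libraries. The authors deposited raw gene counts in 3 tables, 1 for each experiment, made with STAR 2.7 and featureCounts of Subread 2.0 on build mm10, per the submitters' processing notes; their settings are not given in the sources used here. Rows of overlapping genes therefore cannot be separated by strand. Depth ranged from 5638353 to 82205546 counts per library, and no pair of replicates agreed within sampling noise.

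Counts were tested with edgeR 4.0.16 in R 4.3.3 (filterByExpr, TMM scaling, quasi-likelihood F-test) on every gene of a table, with Benjamini-Hochberg adjustment across the tested genes of that table; calls are those with an adjusted p under 0.05. The 96 h fit had cell line as a block, and the 10 d and tumor fits used all libraries of their table, with no block. SE is the fold change divided by the root of F. CPM is the count over the library total, RPKM divides it by the gene length the authors deposited, and log2 CPM used a prior count of 2. Scripts were tested on simulated data. Alternatives were DESeq2 1.42.0, limma 3.58.1 (voom with sample weights), RLE scaling, library size alone, other filters, a replicate block, the compared groups alone, vehicle tumor 1 thinned, and libraries left out.

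The same replicate numbers occur in several groups. For IFNg in DMSO cells, the deviations of libraries of the same number had r of 0.480, 0.148 and 0.125. Libraries of unlike number were not compared, so these values do not show a pairing, and the labels state none. The block changed no call there. In the tumors the r of libraries with the same number was mixed, from -0.28 to 0.58. Number 1 gave 0.58 between anti-PD1 and vehicle, 0.48 between the combination and anti-PD1 and -0.21 between BOM and vehicle. The labels state no pairing there, and the block changed some calls, given below.

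The members and the gene lists were chosen with earlier results of these data known. The genes named beyond the members are, for each list and comparison, up to 3 called genes with the lowest p whose mean log2 CPM is 0 or more, and for each member the 3 genes with the highest r over the tumors. RefSeq held a promoter entry for 4 of the 8 members. Some genes that this rule picks are not reported here.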

Additional observations from a re-analysis of the deposited data

Results flagged for a closer look

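Of 28 groups of 4 or 5 tumors, each for 1 member, 3 held a tumor far from the others of its group; chance alone would flag about 5% of groups. Among the anti-PD1 tumors, tumor 1 had 5.72 CPM of Cxcl10, where the next tumor had 2.35 CPM. The same tumor had 7.14 CPM of Ccl5, where the next had 2.81 CPM. Among the BOM tumors, tumor 3 had 10.5 CPM of Ccl5, where the next had 3.18 CPM.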

How the results depend on the processing

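Where a value below moved, the cause was not tested unless a reason is given. For BOM at 96 h, 1 member was called with no filter on low counts, against 0. For IFNg, 2 members were called in DMSO cells and 2 in BOM cells, against 1 in each, with no filter and with a filter at 1 CPM, since Cxcl9 was then tested, and 0 in DMSO cells with only the groups compared, since Cxcl10 was then filtered out. In the tumors BOM against vehicle called 1 member with limma and 1 with vehicle tumors 1 and 2 left out, against 0. The combination against vehicle called 0 with the replicate block, 0 with only the groups compared and 2 with vehicle tumors 1 and 2 left out, against 1. The combination against anti-PD1 called 5 with DESeq2, 5 with limma, 5 with the replicate block and 5 with vehicle tumors 1 and 2 left out, against 3. With the replicate block Cx3cl1 in the combination against vehicle was 1.68 (adjusted p 0.0507, edgeR). Cxcl9 and Ccl5 against anti-PD1 were then 1.48 (adjusted p 0.0403) and 1.497 (adjusted p 0.0477), and no other member's call changed. In the tumors the labels give these libraries a shared number and state no pairing. Without the cell line block at 96 h, Cx3cl1 was 1.64.

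Signs that turned were all of differences that did not pass. With the replicate block Cxcl10 was 0.16 for BOM at 10 d and -0.018 for BOM against vehicle, and Ccl2 was -0.069 for anti-PD1 against vehicle. With DESeq2 Ccl5 was 0.060 for BOM against vehicle, and with vehicle tumor 1 thinned it was 0.13. With limma Cxcl10 was -0.42 for BOM against vehicle, and Ccl2 was -0.36 for anti-PD1 against vehicle, 0.21 for the combination against anti-PD1 and 0.030 for the interaction. With vehicle tumors 1 and 2 left out, BOM against vehicle gave 0.24 for Cxcl16 and 1.27 for Ccl5, anti-PD1 against vehicle gave 0.10 for Cxcl9 and 0.69 for Ccl5, and the combination against vehicle gave 0.043 for Ccl2.

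Leaving out each library in turn gave 1 to 2 members called for IFNg in DMSO cells and 0 to 2 in BOM cells, 0 to 1 for BOM against vehicle, 0 to 2 for the combination against vehicle and 2 to 5 for the combination against anti-PD1. Values that crossed 0 ranged as follows. For Cxcl10 they were -3.25 to 0.85 for BOM at 10 d and -0.20 to 3.89 for the 10 d interaction, and for Cx3cl1 -0.43 to 0.16 for that interaction. For BOM against vehicle they were -0.16 to 1.03 for Cxcl9, -0.75 to 0.46 for Cxcl10, -0.33 to 0.14 for Cxcl16, -0.13 to 0.61 for Ccl2 and -0.80 to 0.69 for Ccl5. For anti-PD1 against vehicle they were -1.09 to 0.10 for Cxcl9, -0.31 to 0.48 for Ccl2 and -1.19 to 0.12 for Ccl5. For Ccl2 with the combination they were -0.78 to 0.32 against vehicle, -0.98 to 0.042 against BOM, -0.85 to 0.23 against anti-PD1 and -1.06 to 0.017 for the interaction. The relations with the marker lists kept the same number of members past the threshold in every alternative run. At 10 d, counts of 1 to 10 per library for Ccl5 and 2 to 8 for Cxcl16 limit what could be detected.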
